A study of Mus musculus with 6 samples.

Results

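Leukemic bone marrow cells that carried an Evi1 transgene were compared with marrow cells that carried GFP alone. The comparison took in every gene at 1 RPKM or more in at least 2 of the 4 libraries of these groups, which left 10710 of the 38924 rows of the table. RPKM is the number of reads on a gene scaled by its length and by the reads of the library. The 2 mock libraries came from GFP+ Lin- c-kit+ marrow cells taken 4 weeks after mice received mouse marrow transduced with GFP. The 2 leukemia libraries came from cells of the same sort taken 6 months after transplantation of marrow transduced with Evi1-GFP. A further 2 libraries of Evi1-GFP cells at 4 weeks, labelled preleukemia, are given beside them. The strain label of all 6 libraries is C57BL/6, and no further allele or agent is named. Time, the Evi1 construct and leukemia differ together between mock and leukemia and cannot be told apart. Whether the pair of libraries in a group came from different animals is not in the labels, so p-values measure only how far these libraries spread, and that spread may be technical.

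Evi1 is a zinc finger transcription factor encoded by Mecom. It is active in hematopoietic stem cells, where it is needed for their maintenance, and it is shut off as cells mature. High Evi1 expression marks a group of acute myeloid leukemias with poor outcome, and marrow transduced with Evi1 gives rise to myeloid leukemia in mice. Lin- c-kit+ marrow is a mixture of stem cells and of progenitors that are entering the erythroid, megakaryocytic, mast cell, granulocytic, monocytic and lymphoid lineages. In such bulk libraries, fewer cells of a type and less RNA per cell cannot be told apart.

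The transgene checked the labels. Mecom (chr3:29951296-30548008, GRCm38) was at 0.774 and 0.805 RPKM in mock libraries 1 and 2, at 78.0 and 80.1 in the preleukemia libraries and at 61.7 and 71.5 in the leukemia libraries. All 4 Evi1 libraries lay far above both mock libraries. The leukemia mean was 84.4-fold the mock mean, a difference of 5.24 on the log2(RPKM + 1) scale (SE 0.11, limma adjusted p = 3.89e-06). The table does not separate vector reads from those of the endogenous gene. Leukemia and preleukemia differed by -0.25 (adjusted p = 0.159).

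The libraries were of like depth, with 19629500 to 21604000 reads implied in the mock and leukemia groups, so 3 reads on a gene of 1 kb correspond to 0.139 to 0.153 RPKM. The mock libraries differed more from each other (median absolute log2 difference 0.216) than the leukemia libraries did (0.107). The sort receptor Kit was at 69.2 and 57.7 RPKM in mock and at 49.3 and 46.8 in leukemia. That fall of 0.39 on the log2 scale passed narrowly (adjusted p = 0.0459) and did not pass when mock library 1 or any 1 of the leukemia and preleukemia libraries was left out. Among lineage markers that the sort removes, Cd3e, Cd4, Cd8a and Ms4a1 were below 0.2 RPKM in all 4 libraries.

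Of the 10710 genes, 2833 (26.5%) passed the limma test at an adjusted p of 0.05. With the 4 mock and leukemia libraries fitted alone, 1923 passed. Of the 10710, 1343 (12.5%) were higher and 1490 (13.9%) lower in leukemia. These higher and lower shares are the background for the counts of the gene lists below. At a change of at least 1 on the log2 scale, 396 genes (3.7%) were higher and 493 (4.6%) lower. The mock and leukemia libraries did not overlap for 65.6% of the genes, with 30% higher and 35.6% lower. Changes of 3 or more were found for 25 genes that rose and 36 that fell. The count of passing genes was 1147 without leukemia library 1 and 1103 without leukemia library 2. The plot of all genes by level shows the largest falls among genes at high or moderate levels in mock. Most were near 0 or low in leukemia, whereas Ly6c2 was still at 5.68 and 34.8 RPKM. The largest rises began at low levels in mock, with S100a8 at 6.25 and 5.68 RPKM. On the log2(RPKM + 1) scale a large fall requires a mock level well above 0, so this placement is partly set by the scale.

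**Figure D1:**
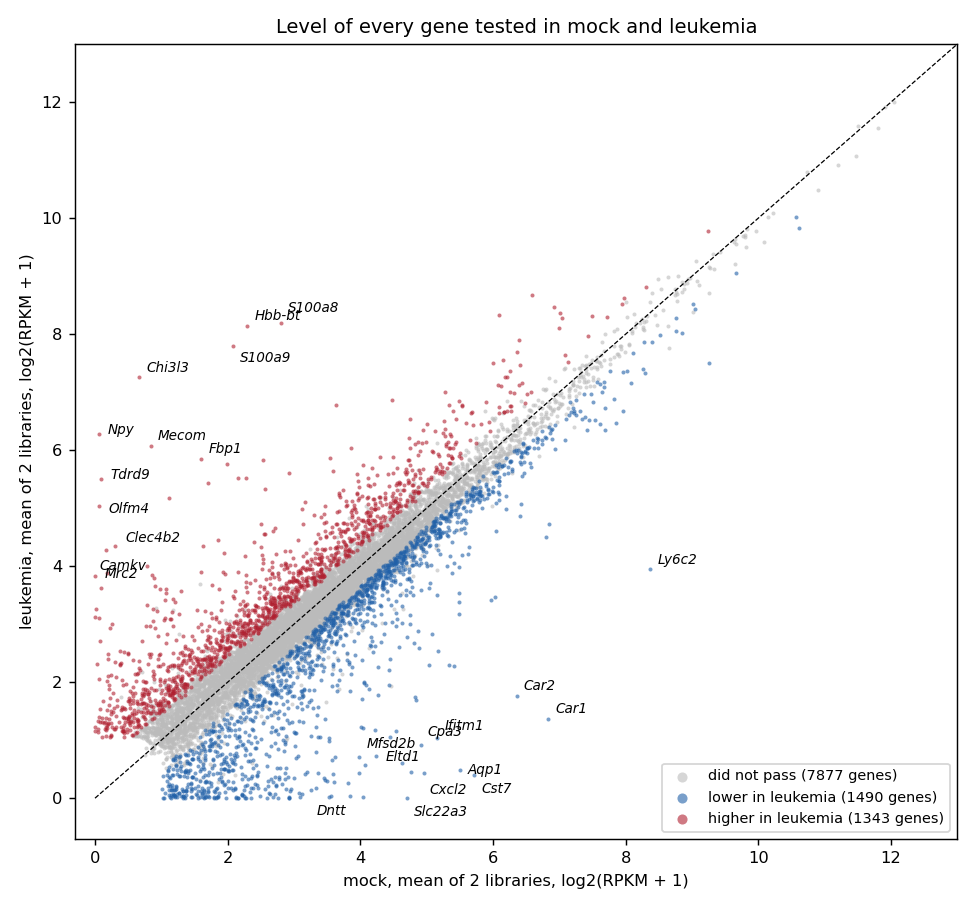
Mean of log2(RPKM + 1) of each of the 10710 genes in the 2 mock libraries (x axis) and the 2 leukemia libraries (y axis), one point per gene, with the dashed line marking equal levels. Red points are the 1343 genes that were higher, blue points the 1490 that were lower and grey points the 7877 that did not pass. The 24 genes with the largest changes, Mecom among them, are named.

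The threshold of 1 RPKM left genes of nearly equal level on either side. The members closest to it were Prickle1, Samd13 and Ybey, whose second-highest values in the 4 libraries were 1.0009, 1.0018 and 1.0021 RPKM. Just outside stood Ttc12, Opn3 and Efcab7, with second-highest values of 0.997, 0.995 and 0.993 RPKM. Of the members, 9520 were at 1 RPKM or more in all 4 libraries, 283 reached it in both leukemia libraries and neither mock library, and 401 did so in both mock libraries and neither leukemia library.

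The genes that rose most include a neuropeptide, a germline RNA helicase, neutrophil granule genes and an adult beta-globin gene. Npy, which encodes neuropeptide Y, lies at chr6:49822710-49829507. It was at 0 and 0.0874 RPKM in mock, at 6.16 and 5.80 in preleukemia and at 74.8 and 79.1 in leukemia. The 3 groups did not overlap, and the change from mock was 6.22 (SE 0.11, adjusted p = 3.67e-06). From preleukemia to leukemia Npy rose by 3.48 (adjusted p = 9.07e-05).

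Tdrd9 (chr12:111971559-112068854) encodes a Tudor domain helicase of the piRNA pathway of germ cells. It was at 0.0770 and 0.0617 RPKM in mock, at 0.393 and 0.317 in preleukemia and at 46.7 and 42.5 in leukemia. Only the leukemia libraries stood above 1 RPKM, with a change from mock of 5.41 (adjusted p = 6.67e-06) and from preleukemia of 5.07 (adjusted p = 3.1e-05). The list of piRNA pathway and germline genes held 20 names, of which 3 were tested and Tdrd9 alone passed. Camkv and Mrc2 had the same order of groups. Camkv, a kinase-like protein of neurons, was at 0.122 and 0.131 RPKM in mock, at 0.721 and 0.808 in preleukemia and at 19.7 and 17.1 in leukemia. Mrc2, a collagen-binding receptor of the mannose receptor family, was at 0.00693 and 0 RPKM in mock, at 0.0266 and 0.0346 in preleukemia and at 14.2 and 12.3 in leukemia. From preleukemia to leukemia Camkv rose by 3.45 (adjusted p = 0.000107) and Mrc2 by 3.78 (adjusted p = 0.000102).

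Fbp1, the fructose bisphosphatase of gluconeogenesis, rose in steps across the 3 groups. It was at 2.07 and 2.01 RPKM in mock, at 19.5 and 21.3 in preleukemia and at 59.9 and 53.9 in leukemia. The leukemia mean was 28.0-fold the mock mean (log2 change 4.25, adjusted p = 8.25e-06), and leukemia exceeded preleukemia by 1.44 (adjusted p = 0.00115). Olfm4, a secreted glycoprotein of neutrophil granules, was at 0.0282 and 0.0603 RPKM in mock and at 26.1 and 38.9 in leukemia (log2 change 4.98, adjusted p = 0.00136). Its preleukemia values of 9.44 and 34.6 overlapped those of leukemia.

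Other genes of this group stood higher at 4 weeks than at 6 months. S100a8 and S100a9 encode the 2 subunits of calprotectin. S100a8 was at 6.25 and 5.68 RPKM in mock, at 2179 and 4117 in preleukemia and at 227 and 373 in leukemia. S100a9 was at 1.95 and 5.02 RPKM in mock, at 1474 and 3049 in preleukemia and at 173 and 284 in leukemia. Both genes were above mock in leukemia (log2 changes of 5.39 and 5.72, adjusted p = 0.000259 and 0.000563), and both were below preleukemia (by -3.36 and -3.25, adjusted p = 0.00222 and 0.00586). The C-type lectin Clec4b2 had the same order, with 0.0394 and 0.464 RPKM in mock, at 59.4 and 73.4 in preleukemia and at 14.8 and 25.4 in leukemia. Chi3l3, a chitinase-like lectin whose gene has close copies, rose from 0.397 and 0.788 RPKM in mock to 102 and 224 in leukemia (log2 change 6.59, adjusted p = 0.000401). Its preleukemia values were 269 and 645, and the difference of leukemia from preleukemia did not pass (-1.45, adjusted p = 0.0821).

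**Figure D2:**
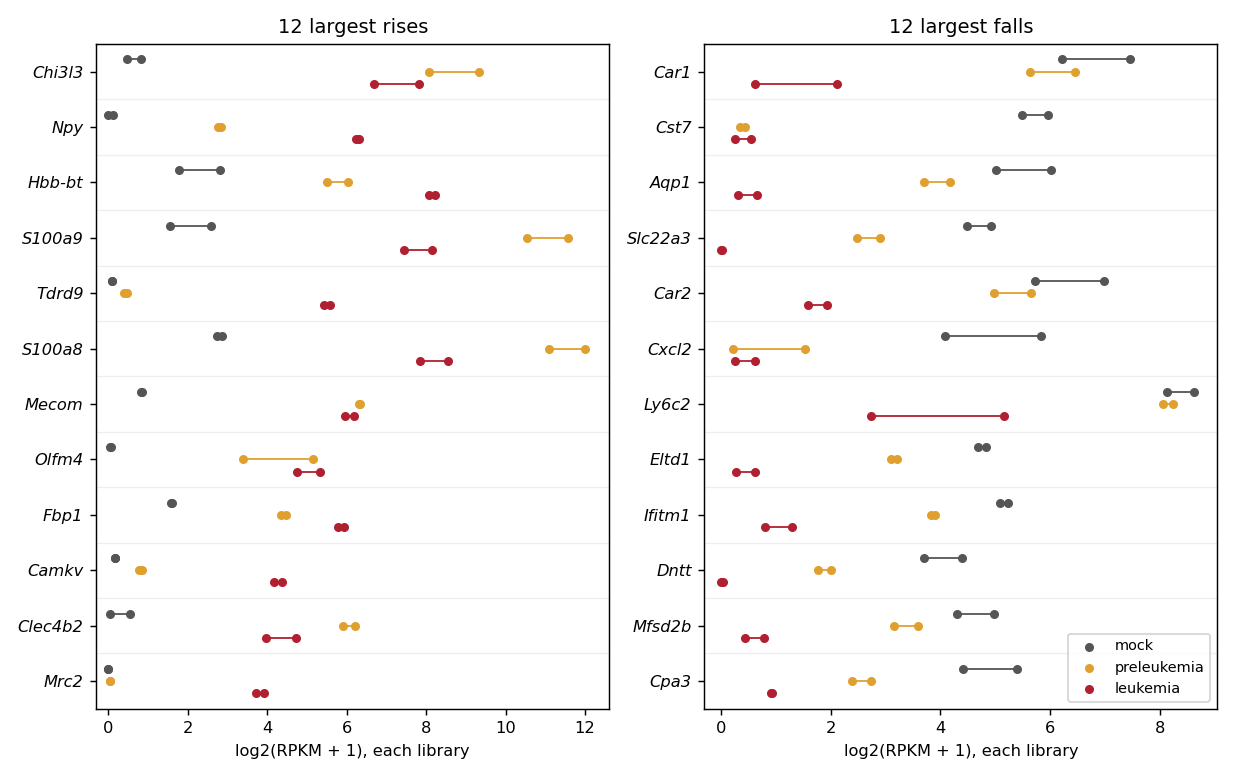
Log2(RPKM + 1) of the 12 largest rises and the 12 largest falls, one point per library with a line joining the 2 libraries of a group (mock grey, preleukemia orange, leukemia red). For each of the 24 genes the mock and leukemia libraries do not overlap, which the rule that chose them required. Npy, Tdrd9, Camkv and Mrc2 stand far above preleukemia only in leukemia, whereas S100a8, S100a9 and Clec4b2 are highest in preleukemia.

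The genes that fell most include carbonic anhydrases and a water channel of red cell precursors, a lymphoid polymerase and a mast cell protease. Car1 (chr3:14766216-14808368), a cytoplasmic carbonic anhydrase of red cells, was at 174 and 73.4 RPKM in mock, at 86.2 and 48.6 in preleukemia and at 0.534 and 3.34 in leukemia. The mock mean was 63.9-fold the leukemia mean, with a log2 change of -5.47 (SE 0.58, adjusted p = 0.00148). Car2, its neighbor, fell from 126 and 52.0 RPKM to 2.02 and 2.82 (log2 change -4.59, adjusted p = 0.000858). Both were also below preleukemia, by -4.67 and -3.54 (adjusted p = 0.00413 and 0.00331). Aqp1, the water channel of red cells, was at 63.5 and 31.1 RPKM in mock, at 16.9 and 11.9 in preleukemia and at 0.236 and 0.581 in leukemia. The 3 groups of Aqp1 stood in that order with no overlap.

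Slc22a3, an organic cation transporter, was at 29.1 and 21.4 RPKM in mock, at 6.50 and 4.59 in preleukemia and at 0.0136 and 0 in leukemia (log2 change -4.69, adjusted p = 6.72e-05). Dntt, the template-free polymerase of antigen receptor joining in lymphoid progenitors, was at 19.98 and 11.98 RPKM in mock, at 2.42 and 2.997 in preleukemia and at 0 and 0.0239 in leukemia. It fell by 4.03 on the log2 scale (adjusted p = 0.000212). Eltd1, an adhesion receptor of endothelium also known from stem cells, went from 27.4 and 24.8 RPKM in mock to 0.208 and 0.539 in leukemia. Ifitm1, a membrane protein induced by interferon, went from 36.5 and 33.1 RPKM to 0.740 and 1.44. Mfsd2b, the sphingosine-1-phosphate exporter of red cells and platelets, went from 30.3 and 18.7 RPKM to 0.351 and 0.722. In each of these 3 genes preleukemia lay between the other groups, and leukemia was lower than preleukemia (log2 differences of -2.71, -2.82 and -2.76, adjusted p = 0.000441, 0.000595 and 0.00219).

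Cst7 and Cxcl2 were already low at 4 weeks. Cst7 encodes cystatin F, an inhibitor of the proteases that activate cytotoxic granules. It was at 60.9 and 43.5 RPKM in mock, at 0.360 and 0.281 in preleukemia and at 0.193 and 0.465 in leukemia. The change from mock was -5.31 (adjusted p = 4.51e-05), and leukemia differed from preleukemia by 0.00 (adjusted p = 0.996). Cxcl2, a neutrophil chemokine, was at 15.8 and 56.1 RPKM in mock, at 0.168 and 1.89 in preleukemia and at 0.542 and 0.193 in leukemia. Ly6c2, a surface protein of monocytes and myeloid progenitors, was instead at 277 and 390 RPKM in mock and 264 and 301 in preleukemia, and at 5.68 and 34.8 in leukemia (log2 change from mock -4.42, adjusted p = 0.00538). Its leukemia libraries differed from each other, and both lay below the other 4. All 24 genes of these sets kept their call in each of the 17 alternative analyses, those that left out 1 library included.

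Of 33 other tested genes within 100 kb of these 24 genes, 8 were higher, 9 were lower and 16 did not pass. Among all genes tested 12.5% were higher and 13.9% lower, and whether the neighbors differ from these shares was not tested. The neighbors named here were chosen after their values were seen. Within 100 kb of Cst7, Acss1, a mitochondrial acetyl-CoA synthetase, went from 16.3 and 13.4 RPKM in mock to 0.231 and 0.468 in leukemia (log2 change -3.55, adjusted p = 0.000106). In the same distance of Camkv, the ubiquitin-like modifier activating enzyme Uba7 rose from 10.5 and 11.5 RPKM to 47.3 and 50.8 (log2 change 2.06, adjusted p = 0.000113), whereas Traip, which lies between them, Rbm6 and Gmppb did not pass. Ly6c1, beside Ly6c2 and close to it in sequence, fell by 3.40 on the log2 scale (adjusted p = 0.00108). Mynn, the tested neighbor of Mecom, differed by -0.23 (adjusted p = 0.268). The medians of the autosomes and the X chromosome ranged from -0.11 for chromosome 18 to 0.02 for chromosome 7, against -0.04 for all genes tested, and the 13 genes of the mitochondrial chromosome had a median of -0.44.

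Most erythroid genes that were tested were lower in leukemia. Red cell development from c-kit+ progenitors is driven by Gata1, Tal1 and Klf1 and by signals from the erythropoietin receptor. Of 31 listed erythroid genes, 25 were tested, 23 were lower in leukemia and none was higher, against 13.9% lower among all genes. The median difference was -2.34 (-2.32 with the 2 genes at 0 in leukemia set to their floor of 3 reads), against -0.04 for all genes. Of the 25, 14 were under 1 RPKM in both leukemia libraries and entered through mock alone, where they had to be higher, so the count and the median are partly set by the filter. All 12 genes with a mean of at least 5 RPKM were lower. The summed RPKM of the list lay at 661 and 305 in mock, at 287 and 194 in preleukemia and at 39.98 and 53.3 in leukemia. Mock library 1 exceeded mock library 2 in all 25 genes. Without mock library 1, 20 genes were lower, with a median of -1.76.

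The transcription factors and receptors of the lineage were among the genes that fell. Gata1 was at 15.2 and 6.60 RPKM in mock, at 10.9 and 4.98 in preleukemia and at 0.840 and 2.61 in leukemia (log2 change from mock -2.11, adjusted p = 0.0227). Klf1, the Krüppel-like factor of globin and membrane genes, was at 20.2 and 5.29 RPKM in mock, at 9.05 and 6.39 in preleukemia and at 0.652 and 1.36 in leukemia (-2.55, adjusted p = 0.0147). Both leukemia libraries lay below both mock libraries for either gene. Epor, the erythropoietin receptor, was at 11.9 and 5.19 RPKM in mock, at 4.59 and 3.61 in preleukemia and at 0.130 and 0.584 in leukemia (-2.74, adjusted p = 0.0027). Tal1, a basic helix-loop-helix partner of Gata1, was at 21.2 and 10.9 RPKM in mock, at 13.5 and 10.1 in preleukemia and at 1.96 and 2.58 in leukemia (-2.32, adjusted p = 0.0027). The blood group protein Rhd was at 10.4 and 3.17 RPKM in mock, at 2.30 and 1.54 in preleukemia and at 0.448 and 0.415 in leukemia (-2.27, adjusted p = 0.0108). Of the 25 genes, Hemgn (8.27 and 3.05 in mock, 3.79 and 3.69 in leukemia) and Tspo2 did not pass. Tspo2 was at 5.97 and 3.88 RPKM in mock, at 0.0749 in leukemia library 1 and at 4.87 in leukemia library 2.

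Because these genes moved together and Gata factors are known to bind the letters AGATAA, the 250 bases before each start site were searched for AGATAA on either strand (TTATCT on the gene strand). Sequences are those of RefSeq on GRCm38.p6, written 5′ to 3′ on the strand of the gene, with the match in capitals. Of the 23 lowered erythroid genes 16 had such a sequence, and 6 (Tal1, Rhd, Kel, Icam4, Epor and Sphk1) held the letters in at least 1 of their windows (37.5%). The share was 7.15% of the genes tested that had a window and 11.4% of all genes with one. Among all genes lower in leukemia it was 9.19%, and among those higher 7.21%. Other small sets had high shares too: 2 of 7 neutrophil genes higher in leukemia (28.6%), 2 of 10 of the largest rises (20%) and 2 of 9 of the largest falls (22.2%). Whether the shares of these sets differ was not tested. A match is a description of the letters and not of binding. Shown are the 3 lowered erythroid genes of largest change whose window holds the letters and overlaps no annotated exon, at chr9:21963577-21963826 (Epor, minus strand), chr4:115056176-115056425 (Tal1, plus strand, one of its 2 windows) and chr4:134864286-134864535 (Rhd, plus strand). Beside them stand 3 of the largest rises that kept rising after 4 weeks, chosen to show windows with and without the letters. Fbp1 (chr13:62888283-62888532, minus strand) holds them, as does S100a9, and Npy (chr6:49822460-49822709, plus strand) and Tdrd9 (chr12:111971309-111971558, plus strand) do not.
Epor: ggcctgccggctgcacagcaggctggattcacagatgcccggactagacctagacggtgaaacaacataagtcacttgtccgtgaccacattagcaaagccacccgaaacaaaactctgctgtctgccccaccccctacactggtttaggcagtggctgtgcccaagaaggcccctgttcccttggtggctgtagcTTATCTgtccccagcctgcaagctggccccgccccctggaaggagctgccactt
Tal1: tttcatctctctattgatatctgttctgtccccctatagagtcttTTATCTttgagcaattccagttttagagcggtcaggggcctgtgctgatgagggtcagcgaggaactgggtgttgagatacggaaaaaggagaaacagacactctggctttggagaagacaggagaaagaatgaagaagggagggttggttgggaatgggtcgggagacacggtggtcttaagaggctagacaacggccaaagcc
Rhd: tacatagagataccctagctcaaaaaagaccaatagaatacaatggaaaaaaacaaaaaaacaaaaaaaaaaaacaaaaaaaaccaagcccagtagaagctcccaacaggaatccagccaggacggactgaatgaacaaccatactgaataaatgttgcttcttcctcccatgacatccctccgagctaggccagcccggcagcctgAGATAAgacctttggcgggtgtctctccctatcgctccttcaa
Fbp1: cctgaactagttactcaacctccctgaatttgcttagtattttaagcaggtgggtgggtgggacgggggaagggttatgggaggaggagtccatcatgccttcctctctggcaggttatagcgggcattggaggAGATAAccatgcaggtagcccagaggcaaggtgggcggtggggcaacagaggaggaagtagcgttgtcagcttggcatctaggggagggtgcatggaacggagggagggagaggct
Npy: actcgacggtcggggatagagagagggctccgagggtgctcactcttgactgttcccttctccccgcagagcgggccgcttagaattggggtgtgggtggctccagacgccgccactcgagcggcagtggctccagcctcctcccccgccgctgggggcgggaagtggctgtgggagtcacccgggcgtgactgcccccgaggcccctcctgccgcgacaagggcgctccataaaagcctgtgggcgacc
Tdrd9: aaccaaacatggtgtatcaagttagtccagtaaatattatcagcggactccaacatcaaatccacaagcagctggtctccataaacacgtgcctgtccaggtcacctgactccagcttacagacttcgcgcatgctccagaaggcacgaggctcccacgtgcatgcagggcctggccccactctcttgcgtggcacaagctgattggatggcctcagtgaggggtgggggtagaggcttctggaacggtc
Counted back from the start site, the match begins at -54 in Epor, -205 in Tal1 and -43 in Rhd. A longer set of letters bound by Evi1 in vitro, ACAAGATA or its complement TATCTTGT, was in none of the 16 erythroid genes with a window and in 0.603% of all genes with a window.

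Globin and heme genes did not follow the erythroid list as a whole. Hbb-bt, an adult beta-globin gene (chr7:103812524-103813996), rose from 2.43 and 5.98 RPKM in mock through 64.1 and 44.6 in preleukemia to 266 and 298 in leukemia (log2 change 5.85, adjusted p = 0.000186). Its near-identical neighbor Hbb-bs was at 2.04 and 2.64 RPKM in mock, at 22.3 and 22.5 in preleukemia and at 0.331 and 1.36 in leukemia (-0.91, adjusted p = 0.0444). The split of reads between these copies depends on the counting and is uncertain. The alpha-globin genes were low in leukemia: Hba-a2 was at 5.06 and 3.41 RPKM in mock and at 0.642 and 2.21 in leukemia (-1.17, adjusted p = 0.0481), and Hba-a1 did not pass (adjusted p = 0.108). The falls of Hbb-bs and Hba-a2 passed in 1 of the 6 fits that left out a library, the one without leukemia library 2. Of 8 heme synthesis genes 3 were lower, Cpox and Fech among them, and none passed when either leukemia library was left out, while 1 was higher without mock library 1. The erythroid enzyme Alas2 was below 0.1 RPKM in all 4 libraries. Of 14 iron genes 5 were lower, among them the transferrin receptor Tfrc (43.5 and 35.2 to 25.0 and 24.1 RPKM), and 2 were higher, with 2 lower and 1 higher when either leukemia library was left out and 1 higher without mock library 1 or either preleukemia library.

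Megakaryocyte genes split in both directions. Of 22 listed, 13 were tested, 6 were lower and 3 higher, with a median of -0.63, and 4 were under 1 RPKM in both leukemia libraries and entered through mock alone. Among the 8 genes with a mean of at least 5 RPKM, 3 were lower and 3 higher, with a median of 0.21. Pf4, a platelet granule chemokine, was at 9.24 and 11.6 RPKM in mock, at 43.7 and 30.9 in preleukemia and at 0 and 0.521 in leukemia (log2 change from mock -3.20, adjusted p = 0.000537). The thrombin receptor F2r went from 21.4 and 23.2 RPKM in mock to 1.18 and 1.28 in leukemia (-3.39, adjusted p = 0.000144). In both genes the leukemia libraries lay below both mock libraries. P-selectin (Selp), an adhesion molecule stored in platelets, instead rose from 13.7 and 13.3 RPKM to 66.0 and 63.2 (2.17, adjusted p = 0.000296), with 25.9 and 19.2 in preleukemia. Nfe2 and Thbs1 rose as well, by 1.29 and 3.36.

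Of 14 genes tested for mast cells, basophils and eosinophils, 8 were lower and 1 (Cd63) higher, with a median of -1.08, and 5 were under 1 RPKM in both leukemia libraries and entered through mock alone. Cpa3, a mast cell protease, was at 41.2 and 20.3 RPKM in mock, at 5.62 and 4.26 in preleukemia and at 0.885 and 0.911 in leukemia (-3.98, adjusted p = 0.00049). The histamine-forming enzyme Hdc went from 14.1 and 8.64 RPKM in mock to 0.358 and 0.303 in leukemia, and the basophil protease Prss34 from 11.1 and 16 to 0 and 0.0419. The leukemia values were far below both mock values in all 3 genes. Hdc and Prss34 were already low in preleukemia, at 0.999 and 0.882 RPKM and at 0.0486 and 0 RPKM. For these genes the limma difference of leukemia from preleukemia did not pass (adjusted p = 0.135 and 0.990). Eosinophil granule genes differed between the leukemia libraries: Prg2 was at 1.87 and 133 RPKM, Epx at 1.6 and 19.9 and Prg3 at 0.150 and 17.3 in leukemia libraries 1 and 2. None of the 3 passed, and without leukemia library 1 the counts of the list were 5 lower and 4 higher.

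Most B-lymphoid genes that were tested were lower in leukemia. Of 13 tested genes, 10 were lower and 1 (Cd79b) higher, with a median of -1.33 (-1.27 with 4 genes at 0 in leukemia set to their floor). Of the 13, 9 were under 1 RPKM in both leukemia libraries and entered through mock alone, where they had to be higher, so the count and the median describe those genes and not the list. Among the 3 genes with a mean of at least 5 RPKM, 1 was lower and 1 higher. Igll1, a surrogate light chain of the pre-B receptor, was at 2.86 and 3.91 RPKM in mock, at 0.355 and 0.192 in preleukemia and at 0 in both leukemia libraries, at least 47.97-fold lower. Il7r, the interleukin-7 receptor of lymphoid progenitors, was at 1.05 and 1.00 RPKM in mock and at 0 in both leukemia libraries, at least 31.36-fold lower. Preleukemia was low for both, and the difference of leukemia from preleukemia did not pass for Igll1 and Il7r (adjusted p = 0.217 and 0.19). Cd79b passed only in the fit without mock library 2 among those that left out a library. The broadly expressed factor Tcf3 was at 50.8 and 42.9 RPKM in mock and 43.9 and 40.2 in leukemia and did not pass (adjusted p = 0.393).

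Genes of antigen presentation fell in part. Of 17 class I genes 11 were lower (64.7%, against 13.9% of all genes) and 3 higher (17.6%, against 12.5%). Their median was -0.60. The heavy chains H2-K1 (284 and 344 to 150 and 169 RPKM) and H2-D1 (242 and 300 to 134 and 151 RPKM) were lower by 0.97 and 0.92 on the log2 scale (adjusted p = 0.00299 and 0.00395). Preleukemia was at 354 and 335 for H2-K1, close to mock. H2-Q7, a nonclassical class I gene with close copies, fell from 32.6 and 58.4 to 5.89 and 10.7 RPKM. The class I transactivator Nlrc5 went from 9.98 and 17.5 to 3.80 and 4.13 RPKM (-1.52, adjusted p = 0.00505). Without leukemia library 1, 7 were lower and none higher, and without leukemia library 2 none was higher. Of 10 tested class II and dendritic genes, 3 were lower and none higher: H2-DMa, the peptide exchange factor, fell from 26.4 and 28.8 RPKM to 2.35 and 2.14 (-3.14, adjusted p = 6.52e-05), and Flt3 and Tcf4 also fell, the latter not without leukemia library 1 or 2. The class II chains varied between the mock libraries, with H2-Aa at 2.44 and 10.1 RPKM, and without mock library 1 the count lower was 7.

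Most neutrophil genes that were tested were higher in leukemia, but a large part of the list fell below the threshold. Of 25 listed genes, 13 were tested, 9 were higher and 1 lower, with a median of 2.47, but 3 of the 13 were under 1 RPKM in both mock libraries and entered through leukemia alone, where they had to be higher. Of the 11 genes with a mean of at least 5 RPKM, 8 were higher and 1 lower. The summed RPKM of the list lay at 126 and 114 in mock, at 4627 and 9733 in preleukemia and at 706 and 1179 in leukemia. Padi4, which citrullinates histones, was at 4.14 and 5.48 RPKM in mock, at 44.6 and 52.2 in preleukemia and at 58.8 and 53.7 in leukemia (log2 change 3.31, adjusted p = 6.72e-05). Cxcr2, a chemokine receptor of mature neutrophils, was at 1.11 and 0.830 RPKM in mock, at 8.94 and 7.07 in preleukemia and at 11.5 and 10.8 in leukemia (2.63, adjusted p = 0.000212). For both genes the difference of leukemia from preleukemia did not pass (adjusted p = 0.346 and 0.0936). Over the list, 9 of the 13 tested genes were lower in leukemia than in preleukemia and none higher, with a median of -2.42. Among all genes tested 12.3% were lower and 5.39% higher in that comparison. The secondary granule genes Ltf and Camp stayed under the threshold, with 0.208 and 1.43 RPKM and 0.396 and 1.69 RPKM in leukemia. Ngp was at 2.46 and 25.8 RPKM in the leukemia libraries and did not pass (adjusted p = 0.155). The integrin Itgam, a marker that the sort removes, rose from 4.66 and 4.77 to 13.7 and 21.7 RPKM. Its part in these results was not tested. The 1 lower gene was not called without leukemia library 1, and 2 were lower without leukemia library 2.

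Primary granule genes of myeloid progenitors went both ways, with 4 higher and 5 lower of 14 (28.6% and 35.7%, against 12.5% and 13.9% of all genes). Their median was -0.23. Elane, neutrophil elastase, was at 702 and 525 RPKM in mock, at 972 and 1176 in preleukemia and at 156 and 207 in leukemia (-1.75 from mock, adjusted p = 0.00189). Myeloperoxidase (Mpo) fell by 0.79 (adjusted p = 0.0214). Lysozyme (Lyz2) rose from 58.0 and 77.0 RPKM in mock to 293 and 348 in leukemia (2.24, adjusted p = 0.00119), and preleukemia was higher still at 1356 and 2024. Without leukemia library 1 or 2, the count lower was 2 or 3. Of 15 monocyte genes 4 were higher (26.7%, against 12.5% of all genes) and 5 lower (33.3%, against 13.9%). Cd68, a lysosomal protein of macrophages, rose from 12.6 and 16.6 to 45.2 and 49.6 RPKM (1.64, adjusted p = 0.000696), and Ccr2, the receptor for monocyte exit from marrow, fell from 11.8 and 12 to 3.67 and 3.57 (-1.48, adjusted p = 0.000477). Without mock library 1, 8 monocyte genes were lower.

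**Figure D3:**
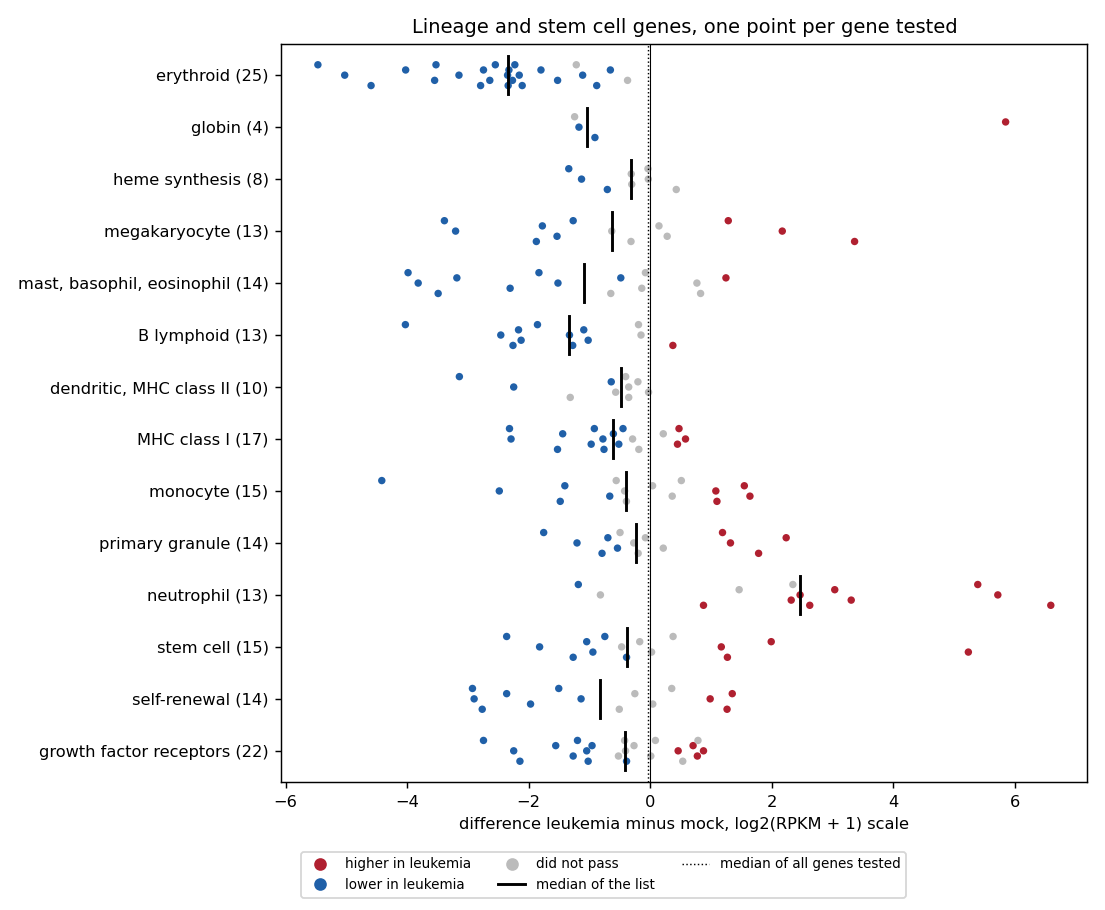
Difference leukemia minus mock on the log2(RPKM + 1) scale for each tested gene of the lineage and stem cell lists, one point per gene (red higher, blue lower, grey did not pass), with the number tested in parentheses. Black bars are list medians, from -2.34 for erythroid to 2.47 for neutrophil genes, and the dotted line is the median of all genes, -0.04.

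Some genes of stem cells and of leukemic self-renewal were close to 0 in leukemia, some were raised and others did not pass. The Hoxa genes and their cofactor Meis1 sustain stem cell programs and drive many acute leukemias. Hoxa9 was at 7.44 and 5.82 RPKM in mock, at 2.09 and 3.12 in preleukemia and at 0 in both leukemia libraries, at least 242.1-fold lower (log2 change -2.92, adjusted p = 0.000296). Hoxa7 was at 8.01 and 5.37 RPKM in mock, at 2.88 and 2.78 in preleukemia and at 0.0165 and 0.0177 in leukemia (-2.90, adjusted p = 0.000292). For both genes preleukemia lay between the other groups without overlap, and leukemia was lower than preleukemia (by -1.83 and -1.91, adjusted p = 0.0025 and 0.0022). Meis1 was at 5.41 and 7.37 RPKM in mock, at 4.35 and 3.76 in preleukemia and at 0.0251 and 0.983 in leukemia (-2.36, adjusted p = 0.00297). Leukemia library 2 held more Meis1 than library 1, and both lay below every other library.

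The stem cell factor Hlf was at 2.49 and 2.57 RPKM in mock and 0 in both leukemia libraries, at least 110.5-fold lower. The kinase-like Trib2 was at 8.04 and 4.09 RPKM in mock and likewise at 0, at least 172.2-fold lower. Hmga2, a chromatin protein of fetal stem cells, went from 1.89 and 2.35 to 0.0914 and 0.105 RPKM. In contrast Erg, an Ets factor needed by stem cells, rose from 21 and 19.7 RPKM in mock through 28.0 and 28.3 in preleukemia to 50.5 and 43.9 in leukemia (1.17, adjusted p = 0.000858). Gpr56, an adhesion receptor known as a target of Evi1, was at 143 and 115 RPKM in mock, at 166 and 136 in preleukemia and at 352 and 307 in leukemia (1.35, adjusted p = 0.00186). Angpt1, a niche ligand, rose from 28.8 and 27.6 to 71.2 and 67.8 RPKM, and the transcription factor Sox4 from 49.3 and 34.4 to 111 and 91.4. Robo4, a guidance receptor of stem cells and endothelium, was at 0.304 and 0.518 RPKM in mock, at 0.317 and 0.439 in preleukemia and at 5.42 and 3.88 in leukemia (1.99, adjusted p = 0.000971). For Gpr56, Angpt1, Sox4 and Robo4 the preleukemia libraries were below both leukemia libraries, and each of these differences passed (1.12, 1.06, 1.46 and 2.02, adjusted p = 0.00557, 0.00591, 0.00521 and 0.00197).

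Over the lists, 7 of 15 stem cell genes were lower and 4 higher (median -0.39), and 7 of 14 self-renewal genes were lower and 3 higher (median -0.82). The 4 higher stem cell genes included Mecom, the transduced gene, so its rise is no result about stem cell genes. The stem cell median equals the value of the sort receptor Kit. In leukemia 5 of the stem cell genes and 7 of the self-renewal genes were under 1 RPKM in both libraries, so they entered through mock, where they were higher. Among genes with a mean of at least 5 RPKM the medians were 0.38 and 0.36, with none lower. Without leukemia library 1 or without leukemia library 2, 4 stem cell genes were lower. Gata2, Cd34 and Myb did not pass, with Cd34 at 142 and 112 RPKM in mock and 127 and 98.6 in leukemia (adjusted p = 0.549). The proto-oncogene Myc rose from 97.6 and 48.0 to 145 and 129 RPKM, which passed narrowly (adjusted p = 0.0488).

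**Figure D4:**
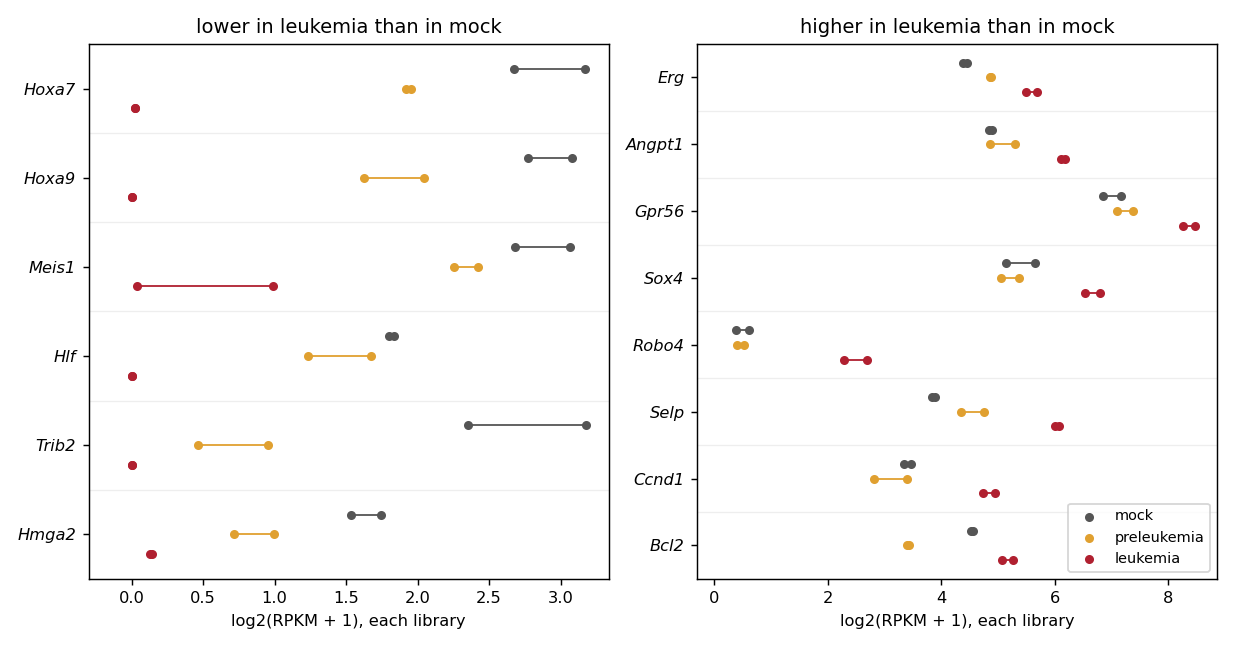
Log2(RPKM + 1) in each library for 6 genes lower (left) and 8 higher (right) in leukemia than in mock, with a line joining the 2 libraries of a group (mock grey, preleukemia orange, leukemia red). The leukemia libraries of Hoxa7, Hoxa9, Hlf and Trib2 lie at or near 0, and those of Erg, Angpt1, Gpr56, Sox4, Robo4 and Selp lie above both other groups.

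Receptors for growth factors and adhesion molecules also changed. Of 22 receptors 10 were lower (45.5%, against 13.9% of all genes) and 4 higher (18.2%, against 12.5%). Of the 22, 4 were under 1 RPKM in both leukemia libraries and entered through mock alone, where they had to be higher. Csf2rb, the shared beta chain of the receptors for interleukin-3, interleukin-5 and GM-CSF, went from 23.8 and 30.9 RPKM in mock to 6.32 and 4.55 in leukemia (-2.14, adjusted p = 0.000888). Flt3, the receptor tyrosine kinase of early lymphoid progenitors, went from 14.7 and 18.6 to 1.63 and 4.19 (-2.25, adjusted p = 0.00336). The 4 that rose were Il3ra, Csf3r, Igf1r and Csf2ra, with log2 changes of 0.46 to 0.88, and none of them passed when either leukemia library was left out. Among 14 adhesion genes 5 were lower (35.7%, against 13.9% of all genes) and 4 higher (28.6%, against 12.5%). Of the 14, 2 (Cdh1 and Itgb3) were under 1 RPKM in both leukemia libraries and entered through mock alone, where they had to be higher. Itgal, the alpha chain of LFA-1, was at 31.8 and 33.6 RPKM in mock, at 5.38 and 4.38 in preleukemia and at 6.13 and 6.11 in leukemia (-2.24, adjusted p = 0.000155). E-cadherin (Cdh1) went from 2.16 and 1.33 to 0.156 and 0.245 RPKM. The adhesion counts were 3 lower and 1 higher without leukemia library 1, and 1 was higher without leukemia library 2. Of 13 myeloid transcription factors, Klf4 and Jun were lower (15.4%, against 13.9% of all genes) and Spi1 higher (7.7%, against 12.5%). Klf4 went from 12 and 27.5 RPKM in mock to 2.37 and 2.49 in leukemia (-2.49, adjusted p = 0.00302), whereas Cebpa at 58.4 and 39.6 in mock and 65.3 and 57.9 in leukemia did not pass (adjusted p = 0.195). Jun did not pass without leukemia library 1, and Spi1 did not pass when any 1 of the leukemia or preleukemia libraries was left out. Without mock library 1 the list held 5 lower and 2 higher genes, and without mock library 2 it held 2 higher.

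NF-kB target and inflammatory genes were low in part, and the mock libraries differed widely for them. The summed RPKM of the list was 345 in mock library 1 and 688 in mock library 2. Of 21 genes 5 were lower (23.8%, against 13.9% of all genes) and 2 higher (9.5%, against 12.5%), with a median of -0.65. Without mock library 1, 15 were lower and the median was -1.34, and without mock library 2, 6 were lower and 5 higher with a median of -0.04. Genes alike in both mock libraries included Tnfaip3, the A20 inhibitor of NF-kB, at 35.9 and 34.3 RPKM in mock and 6.73 and 3.31 in leukemia (-2.64, adjusted p = 0.00134), and Tnf at 6.86 and 6.82 in mock and 2.03 and 1.06 in leukemia (-1.65, adjusted p = 0.00247). The chemokine Ccl3 rose from 23.8 and 40.8 to 90.9 and 81.2 RPKM (1.43, adjusted p = 0.0163), from a lower level of 6.79 and 12 in preleukemia. Neither Ccl3 nor Nfkb1, the other gene that rose, passed without leukemia library 1 or without leukemia library 2, and 1 of them passed without either preleukemia library in turn. Of 21 immediate-early genes 4 were lower and 1 higher, with a median of -0.07 that became 0.01 under quantile normalization and 0.13 without mock library 2. The counts lower were 1 without leukemia library 1, 2 without a preleukemia library and 8 without mock library 1, and 4 were higher without mock library 2 and none without a leukemia or preleukemia library. Fos, at 261 and 296 RPKM in mock and 297 and 357 in leukemia, did not pass (adjusted p = 0.374).

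Of 11 feedback inhibitors and targets of the MAP kinase pathway, 3 were lower (Spry2, Spry1 and Dusp10), 1 was higher (Dusp2) and 7 did not pass. The shares were 27.3% lower and 9.1% higher, against 13.9% and 12.5% of all genes. Of the 11, 3 were under 1 RPKM in both leukemia libraries, Spry2 and Dusp10 among them. They entered through mock alone, where they had to be higher, so the count lower is partly set by the filter. The count lower was 5 without mock library 1, and 0 were higher without leukemia library 1 and 2 without mock library 2. Spry2, a feedback inhibitor of the Ras pathway, was at 9.39 and 10.6 RPKM in mock, at 4.25 and 4.03 in preleukemia and at 0.160 and 0.391 in leukemia (-3.11, adjusted p = 9.57e-05). Spry1 fell by 1.89 (adjusted p = 0.00111). The phosphatase Dusp2 rose from 40.9 and 29.97 to 67.8 and 53.8 RPKM (0.77, adjusted p = 0.0199), and Dusp10 went from 1.38 and 3.20 to 0.548 and 0.686 (-0.97, adjusted p = 0.0368). Dusp6, at 26.0 and 24.3 RPKM in mock and 22.3 and 29.5 in leukemia, did not pass (adjusted p = 0.915). In TGF-beta signaling Evi1 is known to bind Smad3. Of 23 genes of this signaling 4 were lower (17.4%, against 13.9% of all genes) and 2 higher (8.7%, against 12.5%). Under 1 RPKM in both leukemia libraries were 2 of the 23, and 1 was so in both mock libraries. The filter let these differ in 1 direction only. Tgfbr3, a coreceptor, went from 5.73 and 4.78 to 0.0364 and 0.0700 RPKM (-2.57, adjusted p = 0.000296), and Smad6, an inhibitory Smad, rose from 0.462 and 0.973 to 2.96 and 3.10 (1.25, adjusted p = 0.00551). Smad3 itself did not pass (adjusted p = 0.31). Without mock library 1, 11 genes of this list were lower, and with either leukemia library left out 1 was lower and 1 higher. Of 27 interferon genes 6 were higher (22.2%, against 12.5% of all genes) and 3 lower, with a median of 0.03. Rsad2 rose from 0.951 and 1.64 to 7.91 and 5.90 RPKM (1.79, adjusted p = 0.00218), and the counts were 1 higher and 1 lower without leukemia library 1, 3 higher and 1 lower without leukemia library 2 and 3 higher without a preleukemia library.

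Of 32 replication and mitosis genes 10 were lower (31.25%, against 13.9% of all genes) and none higher, with a median of -0.33. The ribonucleotide reductase subunit Rrm2 went from 53.4 and 39.9 to 25.1 and 23.4 RPKM (-0.91, adjusted p = 0.00972), and the replicative helicase subunit Mcm4 from 67.7 and 58.1 to 42.9 and 38.0. Rrm2 and Mcm4 did not pass without leukemia library 2. Top2a and Aurkb, which act in mitosis, were among the 22 that did not pass (adjusted p = 0.864 and 0.747). The count lower was 3 without leukemia library 1, 0 without leukemia library 2, 5 without mock library 1 (with 4 higher), 17 without mock library 2 and 3 without a preleukemia library. The D-type cyclins moved apart: Ccnd1 rose from 10.0005 and 9.17 to 29.8 and 25.7 RPKM (1.44, adjusted p = 0.00338), and Ccnd2 fell from 40.7 and 36.9 to 14.6 and 15.5 (-1.31, adjusted p = 0.000883). The Cdk inhibitor Cdkn1c was at 0.0719 and 0.256 RPKM in mock, at 20.1 and 32.0 in preleukemia and at 2.00 and 3.56 in leukemia (1.67 from mock, adjusted p = 0.00683).

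Of 19 p53 target genes 6 were higher (31.6%, against 12.5% of all genes) and 1 lower (5.3%, against 13.9%). Their median was 0.32. Trp53inp1 rose from 4.81 and 4.81 to 14.1 and 17.2 RPKM (1.51, adjusted p = 0.000888), Sesn1 from 14 and 11.9 to 34.2 and 30.4 and Zmat3 from 0.875 and 0.600 to 3.05 and 5.09. Cdkn1a, the best-known target, was at 20.7 and 57.4 RPKM in mock and 17.7 and 11.4 in leukemia and did not pass (adjusted p = 0.0829). The count lower was 0 without leukemia library 1, 4 without mock library 1 and 2 without mock library 2. Of 12 Bcl2 family genes, Bcl2, Bax and Pmaip1 were higher. Bcl2, which blocks apoptosis, was at 22.1 and 22.6 RPKM in mock, at 9.47 and 9.76 in preleukemia and at 37.4 and 32.7 in leukemia (0.62, adjusted p = 0.00714). None of the 3 passed without leukemia library 1 and 1 did without leukemia library 2, whereas 5 genes were higher without either mock library in turn and 1 was lower without mock library 1.

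Metabolic genes were mostly lower where they changed. Of 4 gluconeogenesis genes tested, Fbp1 alone passed, and the median of that list was -0.14. Of 69 nuclear genes of the respiratory chain 34 were lower and 1 higher, with a median of -0.42, and 58 were lower without overlap between libraries, where 35.6% of all genes were. Cox7b, a subunit of cytochrome oxidase, went from 46.6 and 43.4 to 27.7 and 24.9 RPKM (-0.75, adjusted p = 0.00365), and Cyc1, a cytochrome subunit of complex III, from 57.2 and 53.3 to 37.2 and 35.8, a fall that did not pass without leukemia library 2. The count lower was 10 without leukemia library 1, 1 without leukemia library 2 and 22 without a preleukemia library. The 1 higher gene was not called in those fits, and 2 were higher without mock library 1. The 13 mitochondrially encoded messages had a median of -0.44, with 2 lower, of which none passed without a leukemia library or mock library 2 and 1 without mock library 1. Of 24 genes of the tricarboxylic acid cycle 7 were lower and 1 higher, with 2 lower without leukemia library 1, none without leukemia library 2, 4 without a preleukemia library and 13 without mock library 2. The higher gene passed in the 2 fits without a mock library.

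Among 25 glycolysis genes 6 were lower (24%, against 13.9% of all genes) and 3 higher (12%, against 12.5%). Ldhb, the heart-type lactate dehydrogenase subunit, was at 4.60 and 5.23 RPKM in mock, at 78.3 and 76.2 in preleukemia and at 37.0 and 41.7 in leukemia (2.77, adjusted p = 5.38e-05). Hk3, the myeloid hexokinase, rose from 71.0 and 56.1 to 175 and 187 RPKM (1.5, adjusted p = 0.000764). Pklr, the red cell pyruvate kinase, fell from 12.8 and 4.13 to 0.0294 and 0.0944 RPKM (-2.99, adjusted p = 0.00358). Without leukemia library 1 or 2, the count lower was 3. Asns, the asparagine synthetase controlled by Atf4, was at 7.65 and 4.81 RPKM in mock, at 3.50 and 4.51 in preleukemia and at 0.174 and 0.186 in leukemia (-2.59, adjusted p = 0.000649). Of the 16 genes of its list 7 were lower and 2 higher, and the counts were 3 lower and 0 higher without leukemia library 1 and 2 lower and 1 higher without leukemia library 2. None of 17 cholesterol synthesis genes passed the limma test, whereas 3 were lower and 1 higher without mock library 1.

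Most tested chaperones of the endoplasmic reticulum were lower. Of 18 genes 12 were lower (66.7%, against 13.9% of all genes) and none higher. Their median was -0.58, against -0.04 for all genes. Hspa5, the main chaperone of this compartment (BiP), was at 229 and 269 RPKM in mock, at 222 and 251 in preleukemia and at 96.1 and 106 in leukemia (-1.29, adjusted p = 0.00108). Sdf2l1 went from 55.2 and 42.9 RPKM in mock to 20.8 and 17.5 in leukemia (-1.30, adjusted p = 0.00194) and Manf from 23.8 and 24.3 to 13.1 and 14 (-0.79, adjusted p = 0.00204). These 3 genes were also lower than in preleukemia (by -1.22, -1.58 and -0.95, adjusted p = 0.0024, 0.00219 and 0.00222). The count lower was 6 without leukemia library 1 and 6 without leukemia library 2, and 1 gene was higher without mock library 1.

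Of 28 antioxidant genes 10 were lower and 4 higher. Superoxide dismutase Sod1 went from 184 and 184 RPKM in mock to 92.0 and 90.4 in leukemia (-1.0, adjusted p = 0.00285), and Mgst2, a microsomal glutathione transferase, rose from 3.76 and 5.69 to 18.4 and 20.001 (1.84, adjusted p = 0.00143). Without leukemia library 1, 3 were lower, and without leukemia library 2, 4 were lower and 1 higher. Of 24 chromatin regulators 7 were higher (29.2%, against 12.5% of all genes) and 4 lower (16.7%, against 13.9%). The DNA methyltransferase Dnmt3a rose from 6.98 and 6.22 to 14 and 13.7 RPKM (0.97, adjusted p = 0.0021), and the Polycomb subunit Pcgf2 fell from 2.78 and 3.33 to 0.310 and 0.447 (-1.55, adjusted p = 0.00112). These 2 were the ones that passed when either leukemia library was left out, and 4 were higher and 2 lower without a preleukemia library, 7 lower without mock library 1 and 4 higher without mock library 2. Of 42 ribosomal protein genes 6 were lower (14.3%, near the 13.9% of all genes) and none higher, with a median of -0.13, with 2 lower without leukemia library 1, 0 without leukemia library 2 and 3 without mock library 2 or a preleukemia library.

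**Figure D5:**
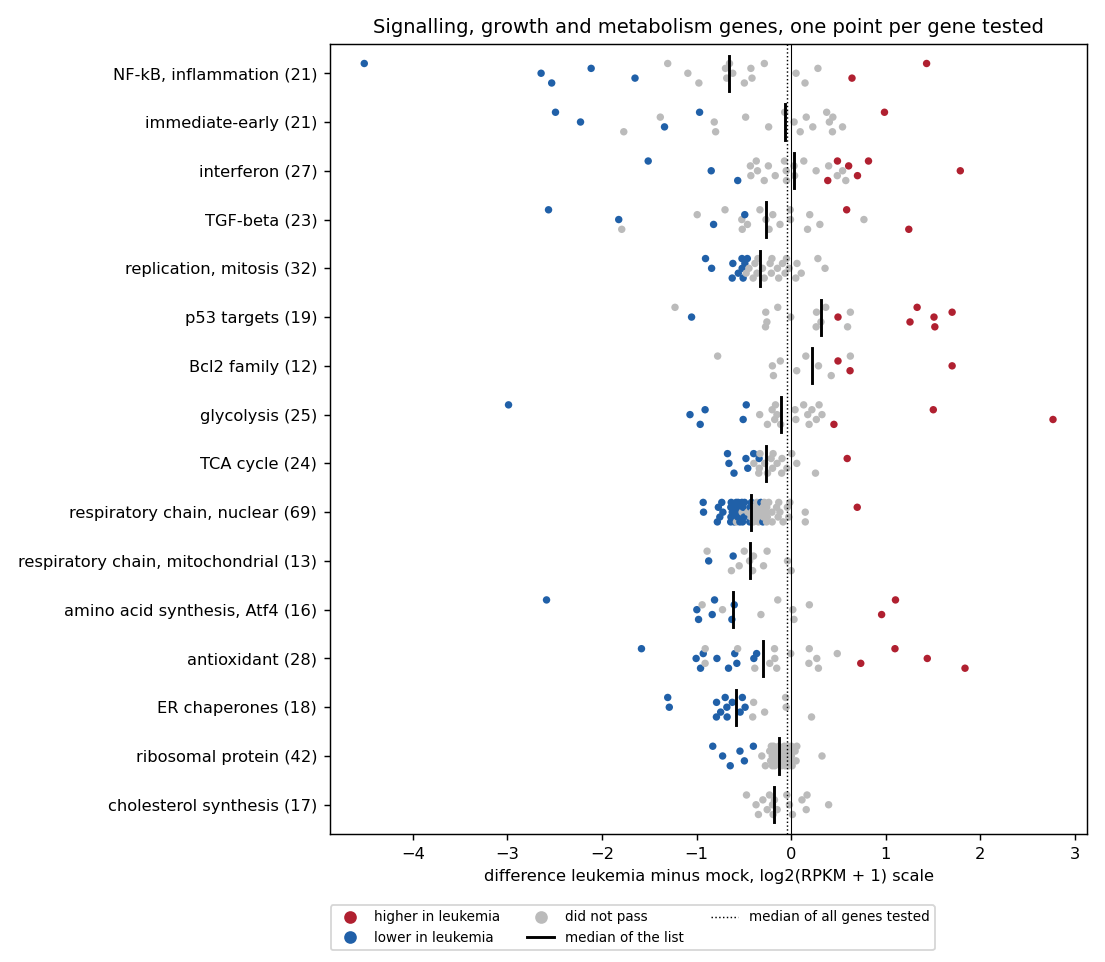
Difference leukemia minus mock on the log2(RPKM + 1) scale for each tested gene of the signaling, growth and metabolism lists, one point per gene (red higher, blue lower, grey did not pass), with the number tested in parentheses. Black bars are list medians and the dotted line is the median of all genes, -0.04. The respiratory chain and chaperone genes lie mostly left of the line, with medians of -0.42 and -0.58, and the p53 target genes have a median of 0.32.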

How the data were processed

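RNA of sorted GFP+ Lin- c-kit+ marrow cells was sequenced after preparation with the Nucleospin RNA and NEBNext Ultra kits, per the labels' protocols. The authors deposited 1 table of RPKM values, 38924 rows by 6 libraries. CASAVA 1.8.2 and GRCm38 are named in the submitters' processing notes. An aligner, counting program or strand setting is not given in the sources used here, so overlapping and antisense genes may share reads. Between 64.4% and 66.5% of values under 20 implied reads lay within 0.02 of a whole number of reads, against 4% by chance. Depth was taken from these steps with GENCODE M21 exon lengths, for 10082 (94.1%) of the tested rows, which also gave positions.

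All 6 libraries were fitted with limma 3.58.1 (R 4.3.3) on log2(RPKM + 1), 1 mean a group, no covariate, spread following the mean level. Tests are two-sided, with Benjamini-Hochberg adjustment over the 10710 genes and a threshold of 0.05. Fold changes are on this log2 scale, which understates changes of low genes, unless called a fold or ratio of RPKM. "At least" folds set a group at 0 to 3 reads per library and cover counting error only. The members and lists were chosen with earlier results of these data known. The naming rule took Mecom, the 12 largest rises and 12 largest falls (passing, at least 1 on the log2 scale, no overlap, unnamed gene models left out), and up to 4 passing members of each list with the smallest p. Other genes were named after their values were seen. The test was checked on simulated data. Alternatives were other pseudocounts, filters, scalings and spread estimates, the 4 libraries alone, a replicate block, each library left out and array weights. Results for some genes are not reported here.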

Additional observations from a re-analysis of the deposited data

Results flagged for a closer look

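The 167 genes taken by the naming rule were searched for opposite changes, and the other tested genes were not. Of these 167, a set of 5 passed the limma test against mock in opposite directions at 4 weeks and at 6 months. For each of the 5 the difference between leukemia and preleukemia itself passed. Elane, neutrophil elastase, was at 702 and 525 RPKM in mock, at 972 and 1176 in preleukemia and at 156 and 207 in leukemia, and leukemia differed from preleukemia by -2.57 on the log2(RPKM + 1) scale (adjusted p = 0.00131). Pf4, the platelet chemokine, was at 9.24 and 11.6 RPKM in mock, at 43.7 and 30.9 in preleukemia and at 0 and 0.521 in leukemia, a difference of -4.94 (adjusted p = 0.000241). The interferon-induced Ifitm3 was at 56.0 and 52.6 RPKM in mock, at 213 and 215 in preleukemia and at 39.5 and 36.8 in leukemia, a difference of -2.46 (adjusted p = 0.000102). These 3 genes were highest in preleukemia and lowest in leukemia. Hbb-bs, whose reads can be split with the near-identical Hbb-bt, was at 2.04 and 2.64 RPKM in mock, at 22.3 and 22.5 in preleukemia and at 0.331 and 1.36 in leukemia, a difference of -3.72 (adjusted p = 0.000912). Bcl2 went the other way, with 22.1 and 22.6 RPKM in mock, at 9.47 and 9.76 in preleukemia and at 37.4 and 32.7 in leukemia, a difference of 1.76 (adjusted p = 0.000513). Against mock, Ifitm3 and Bcl2 did not pass without leukemia library 1, Ifitm3 did not pass without leukemia library 2, and Hbb-bs passed only without leukemia library 2 among the fits that left out a library.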

How the results depend on the processing

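None of the 167 genes taken by the naming rule changed direction under any alternative run. Genes named outside that rule were not checked for this. The balance of the counts turned: 1529 genes were higher and 1327 lower with quantile normalization, and 1522 and 1429 with trimmed-mean scaling. The medians of the immediate-early list (0.01 with quantile normalization, 0.13 without mock library 2) and of the monocyte list (0.06 without mock library 2) turned positive, as did those of the chromatin list (0.10 without mock library 2) and, among genes with a mean of at least 5 RPKM, the stem cell, self-renewal and megakaryocyte lists (0.38, 0.36 and 0.21). The Bcl2 family median became -0.09 without mock library 1. The 2833 genes changed (1343 higher, 1490 lower) became 1686 (793 higher, 893 lower) among genes with a mean of at least 5 RPKM, of which fewer were tested. A fit of the 4 mock and leukemia libraries alone called 1923 genes, 956 higher and 967 lower. The main fit also takes its spread from the preleukemia libraries. Their median absolute log2 difference was 0.110, against 0.216 for the mock libraries. Leaving out 1 library in turn gave 1103 to 3890 genes changed, 531 to 1933 higher and 572 to 1957 lower, where a lone library is assumed to vary like the other groups. The fewest remained without leukemia library 2 and the most without mock library 1. Among called genes 47.4% were higher, and 53.5% were with quantile normalization. Many of the 167 genes of the naming rule no longer passed when a leukemia library was left out. Array weights, chosen after seeing the data, gave 2006 genes. Same-numbered mock and leukemia libraries did not deviate together (correlation of 0.0131), while the correlations were 0.118 for mock with preleukemia and 0.171 for preleukemia with leukemia. As not every pair was over 0.1 and there are 2 libraries a group, the numbers were not taken to pair them, and with the replicate number as a block 2951 genes passed (1374 higher, 1577 lower). At this depth, genes under 3 reads cannot be told from absent.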

Other observations

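Stromal, T cell and NK cell lists gave few values, with 3 genes tested in each of a stromal and endothelial list and a T and NK cell list. Pdgfrb, a receptor of mesenchymal cells, was at 6.96 and 8.46 RPKM in mock, at 0.216 and 0.143 in preleukemia and at 0.0695 and 0.0279 in leukemia (limma log2 change from mock -3.05, adjusted p = 0.000113). Both Evi1 groups lay far below mock. Nkg7, a cytotoxic granule protein, was at 87.7 and 47.1 RPKM in mock, at 66.7 and 67.2 in preleukemia and at 6.83 and 14.6 in leukemia (-2.56, adjusted p = 0.00423), while Cd3e was at 0 in all 4 mock and leukemia libraries. Of 13 hypoxia genes 2 were higher and 2 lower, 15.4% each, near the 12.5% and 13.9% of all genes (6 lower without mock library 1, 1 without leukemia library 1 or a preleukemia library and 0 lower and 1 higher without leukemia library 2): Egln3, a prolyl hydroxylase of the oxygen response, rose from 18.3 and 14.6 to 47.1 and 43.1 RPKM (1.41, adjusted p = 0.00109).

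Impdh1, an enzyme of guanine nucleotide synthesis, went from 27.3 and 20.5 RPKM in mock to 6.13 and 8.22 in leukemia (-1.61, adjusted p = 0.00162), with 25.3 and 26.9 in preleukemia. Etfb, which passes electrons from fatty acid oxidation to the respiratory chain, went from 80.5 and 65.5 to 34.7 and 37.4 RPKM (-0.99, adjusted p = 0.00247). Cdkn2a was at 0 RPKM in both mock and both preleukemia libraries and at 0.366 and 1.78 in leukemia, below the threshold for testing.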
